A study of Homo sapiens with 6 samples.

Results

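The enzymes that write, maintain and remove methylation of cytosine in DNA were followed by their mRNA levels in HCCLM3-SR cells, which were made from the human hepatocellular carcinoma line HCCLM3 by culture in rising doses of the multikinase inhibitor sorafenib until they resisted the drug. The set held 9 of the 38637 genes in the deposited table, found there by symbol: the TET dioxygenases TET1, TET2 and TET3, the DNA methyltransferases DNMT1, DNMT3A and DNMT3B, the maintenance factor UHRF1, and the DNA glycosylases TDG and MBD4. All 6 libraries came from cells under 5 µM sorafenib and siRNA for 3 days. In 3 libraries the siRNA was directed against cDCBLD2, a circular RNA made from exons of DCBLD2 (named si-cDCBLD2 in the labels), and in the other 3 it was the control siRNA (siCTRL). All libraries came from a single resistant line, every culture carried the drug, and no sorafenib-sensitive or drug-free group was included. Nothing in the labels says whether libraries of a group came from separate cultures, so p-values measure only the spread between these libraries, which may be technical. The genes were chosen by role, but with the knockdown and control TPM values of these libraries known, and TET1 was chosen by its low TPM after cDCBLD2 knockdown. Their differences between knockdown and control are therefore given as a description. How many passed the thresholds of the fits is given only as a count beside the share of all genes that did, and supports nothing.

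DNA methylation is set on CpG sites by the de novo enzymes DNMT3A and DNMT3B and is copied onto new strands after replication by DNMT1, which UHRF1 brings to hemimethylated DNA. TET enzymes oxidise 5-methylcytosine to 5-hydroxymethylcytosine and further products, some of which TDG excises so that base excision repair can restore cytosine. MBD4 removes thymine from the mismatches left when methylated cytosine is deaminated. In hepatocellular carcinoma, loss of methylation over large parts of the genome and gain of methylation at CpG islands are well known. The libraries report mRNA, and neither methylated nor hydroxymethylated DNA was measured in them.

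The cells carried the keratin mRNAs of liver epithelial cells, but little of the hepatocyte secretory program. Of 8 liver epithelial markers, 4 had a mean of at least 1 TPM (transcripts per 1000000), and their sum was 5810 to 6976 TPM in the knockdown and 4806 to 5624 TPM in the control libraries, nearly all of it KRT8 and KRT18. The albumin gene ALB lay between 0.189 and 1.59 TPM. Of the 4 leukocyte markers CD68 alone reached a mean of 1 TPM, at 89.99 to 125.1 TPM, and CD3E was at 0 in every library. PECAM1 alone of the 3 endothelial markers reached 1 TPM, and so did COL1A1 among the 3 fibroblast markers. The summed fibroblast markers were 3.70 to 14.2 TPM in the knockdown and 1.23 to 3.37 TPM in the control libraries. The highest sum was that of knockdown replicate 1, with COL1A1 at 11.24 and COL1A2 at 2.67 TPM, and COL1A2 was at 0 in every other library. The part of other cell types in the results was not tested. Libraries held at least 17489227 to 23058947 reads, recovered from the TPM values. Both libraries of replicate 1 held the fewest, 17509509 (knockdown) and 17489227 (control), against 20233861 or more in the others. The part of depth in differences between replicate numbers was not tested. The host gene DCBLD2 was at 58.2, 25.9 and 31.6 TPM in the knockdown libraries (replicates 1, 2 and 3 in order), against 71.5, 48.5 and 50.7 TPM in the controls, a log2 fold change of -0.61 with an adjusted p of 0.253 by limma, or 0.0139 with the replicate number as a block. With an offset for the trend with GC content, described below, the DCBLD2 log2 fold change was -0.28 ± 0.211 (SE). The paper saw no clear and consistent change of DCBLD2 mRNA or protein after this knockdown across its resistant lines. The circular RNA itself cannot be read from a value per gene.

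The levels of the 9 genes spanned from DNMT1, with a control mean of 119 TPM ± 22.3 (SD, n = 3), to TET1, with 0.372 TPM ± 0.0728 (SD, n = 3). TPM values are scaled by transcript length, so levels of different genes can be set side by side. Effects of GC content or uneven coverage on these levels were not removed, and their part in the order of genes was not tested. In the controls the order of mean levels was DNMT1, UHRF1, MBD4, TDG, DNMT3B, TET3, DNMT3A, TET2 and TET1. The control ranges of MBD4 and TDG overlapped. MBD4 was above TDG in only 2 of 6 libraries, control replicates 1 and 2, and TDG was the higher one in every knockdown library. Each other neighbour in this order was the higher one in 6 of 6 libraries, although the knockdown ranges of TET3 and DNMT3A overlapped. DNMT1 made up 92.7% ± 1.27 (SD, n = 3) of the summed TPM of the 3 methyltransferases in the controls and 92.2% ± 0.138 (SD, n = 3) after knockdown. TET3 made up 76.1% ± 1.28 (SD, n = 3) of the summed TPM of the 3 TET genes in the controls.

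**Figure D1:**
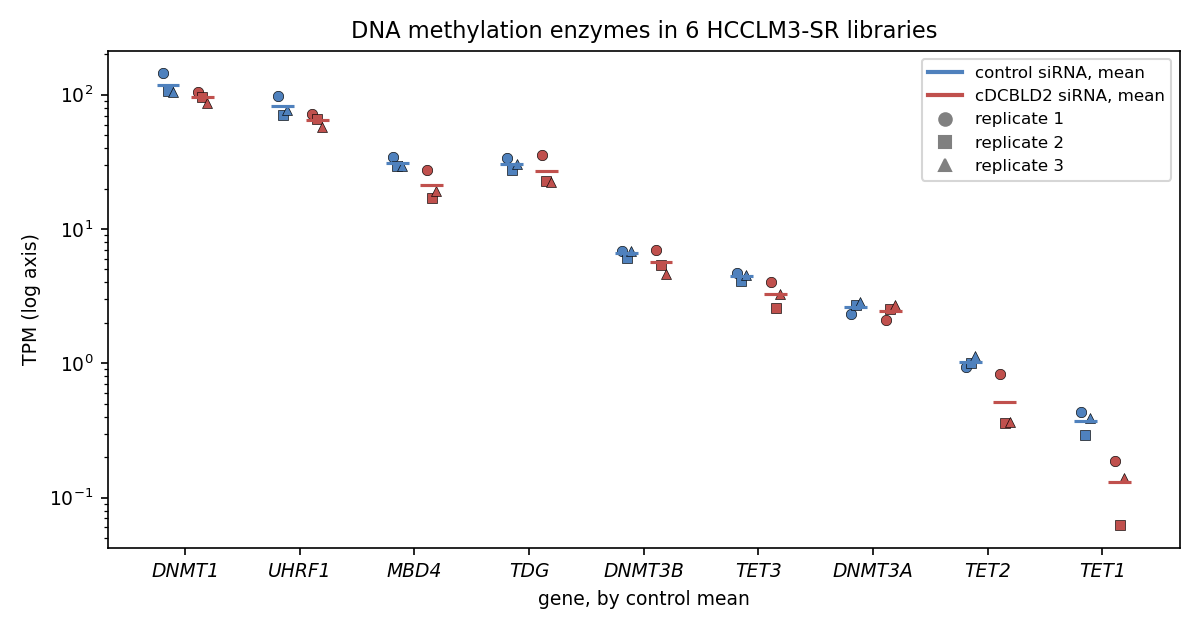
TPM of the 9 genes in each library on a log axis, ordered by the control mean, with control libraries in blue, knockdown libraries in red, a marker shape for each replicate number and a bar at each group mean. DNMT1 and UHRF1 lie highest and TET1 lowest, and all red points lie below all blue points for TET1, TET2, TET3 and MBD4.

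TET1 and TET2 had the lowest mRNA levels among the members and the largest proportional differences between knockdown and control. TET1, on GRCh38 chr10:68560656-68694482 (plus strand), was at 0.186, 0.0623 and 0.141 TPM in the knockdown libraries (replicates 1, 2 and 3 in order), against 0.435, 0.292 and 0.388 TPM in the controls. Every knockdown library was below every control library, and the knockdown mean of 0.130 TPM ± 0.0627 (SD, n = 3) was 34.9% of the control mean. These levels rest on 22, 10 and 21 recovered reads in the knockdown and 50, 40 and 53 in the control libraries. The 95% Poisson interval was 0.117 to 0.282 TPM for knockdown replicate 1 and 0.323 to 0.574 TPM for control replicate 1. Such intervals cover counting error only. TET1 was chosen by its low TPM after knockdown, so the distance between them supports nothing. The log2 ratio within pairs of the same replicate number was -1.23, -2.23 and -1.46. TET1 averaged 0.251 TPM over the 6 libraries and TET2 0.774 TPM, under the minimum of 1 TPM for the fit, so both passed only in the fits to recovered reads or without a minimum.

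TET2, on chr4:105145875-105279816 (plus strand), was at 0.831, 0.359 and 0.365 TPM in the knockdown libraries (replicates 1, 2 and 3 in order), against 0.938, 1.01 and 1.13 TPM in the controls. The groups did not overlap, but knockdown replicate 1 lay close to the controls, and its 95% Poisson interval of 0.670 to 1.02 TPM overlapped that of control replicate 1, 0.764 to 1.14 TPM. The pair differences were accordingly uneven, at -0.17, -1.498 and -1.64 on the log2 scale. TET3, the most abundant TET mRNA, on chr2:73986404-74108176 (plus strand), was at 4.06, 2.58 and 3.30 TPM in the knockdown and 4.73, 4.08 and 4.58 TPM in the control libraries. Again no library of one group reached the other, with a highest knockdown level just under the lowest control level. Its log2 fold change on log2(TPM + 1) was -0.35 ± 0.158 (SE, 3 against 3 libraries). This scale understates differences of genes with low levels.

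Summed over the 3 TET genes, the level was 5.07, 3.00 and 3.81 TPM in the knockdown and 6.11, 5.38 and 6.10 TPM in the control libraries. The means were 3.96 TPM ± 1.05 (SD, n = 3) and 5.86 TPM ± 0.415 (SD, n = 3), and the groups did not overlap. The share of TET3 in this sum was higher in every knockdown library, at 79.95%, 85.9% and 86.7% against 77.5%, 75.7% and 75.03%. The share of TET1 was lower in every knockdown library, at 3.67%, 2.08% and 3.70% against 7.13%, 5.43% and 6.37%. The share of TET2 overlapped between the groups, with 16.4%, 11.98% and 9.60% against 15.4%, 18.9% and 18.6%. These shares depend on each other, and TET1 was chosen by its low TPM after knockdown, so they are a description only. How often sums or shares of other genes separate the groups was not counted.

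**Figure D2:**
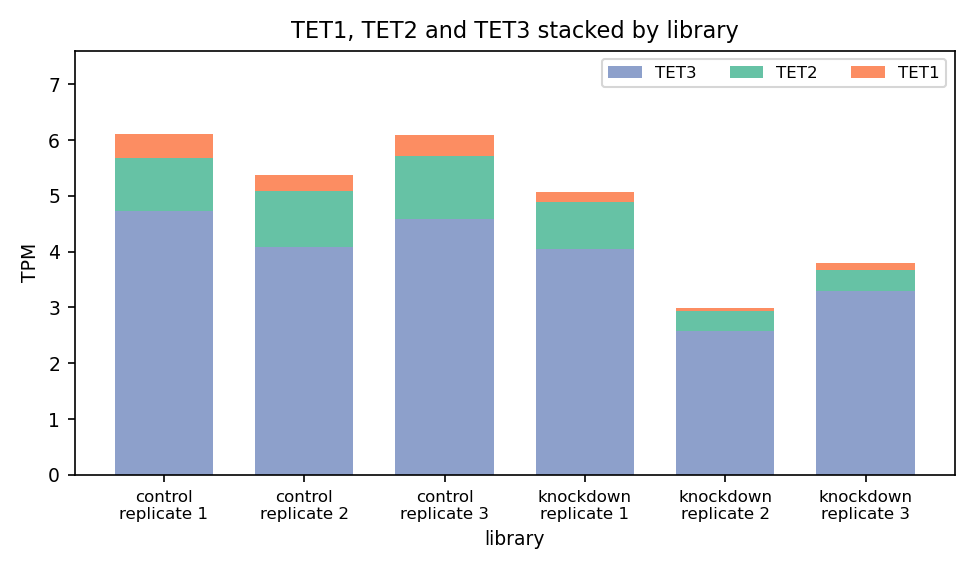
Stacked bars of the TPM of TET3, TET2 and TET1 in each of the 6 libraries, starting at 0. The full bars reach 3.00 to 5.07 TPM in the knockdown and 5.38 to 6.11 TPM in the control libraries, and TET3 fills most of each bar.

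DNMT1 and UHRF1, the maintenance pair, had the highest levels of the set in every library. DNMT1, on chr19:10133345-10231286 (minus strand), was at 105.5, 95.6 and 86.5 TPM in the knockdown libraries (replicates 1, 2 and 3 in order), against 144, 107 and 104.8 TPM in the controls. The groups overlapped narrowly, since knockdown replicate 1 was just above control replicate 3. The log2 fold change was -0.29 ± 0.143 (SE), or ± 0.065 with the replicate block. UHRF1, on chr19:4903080-4962154 (plus strand), was at 72.0, 66.4 and 57.1 TPM in the knockdown and 98.4, 70.9 and 77.3 TPM in the control libraries, and here too only knockdown replicate 1 reached into the control range. Its log2 fold change was -0.32 ± 0.144 (SE), or ± 0.081 with the block. The ratio of DNMT1 to UHRF1 TPM overlapped between the groups, at 1.465, 1.44 and 1.51 in the knockdown and 1.47, 1.504 and 1.36 in the control libraries. DNMT1 shares 83 exonic bases on the same strand with S1PR2, which was at 5.45 TPM ± 0.450 (SD, n = 3) in the controls and 5.07 TPM ± 0.841 (SD, n = 3) with cDCBLD2 siRNA.

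Among the promoter windows searched for the 9 members, only those of this pair held a match to an E2F-type motif. E2F proteins are transcription factors that drive many genes of S phase. The windows from RefSeq (GRCh38.p14) run from 250 bases before to 50 after a start site, and capitals mark the match, spelled as TTTCCCGC, TTTGGCGC, TTTCGCGC or TTTGCCGC on either strand. The DNMT1 window is chr19:10194904-10195203 (minus strand), its only one, with the match from base -2 to base 6 around the start site. The UHRF1 window is chr19:4909251-4909550 (plus strand), with the match from base -14 to base -7, and it is the one of 3 windows that holds most annotated coding starts.
DNMT1 promoter: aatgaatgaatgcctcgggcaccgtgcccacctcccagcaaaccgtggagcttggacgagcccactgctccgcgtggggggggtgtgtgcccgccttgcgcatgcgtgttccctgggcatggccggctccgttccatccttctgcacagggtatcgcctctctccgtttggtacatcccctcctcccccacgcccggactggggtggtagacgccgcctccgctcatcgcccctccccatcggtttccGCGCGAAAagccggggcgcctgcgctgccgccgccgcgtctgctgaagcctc
UHRF1 promoter: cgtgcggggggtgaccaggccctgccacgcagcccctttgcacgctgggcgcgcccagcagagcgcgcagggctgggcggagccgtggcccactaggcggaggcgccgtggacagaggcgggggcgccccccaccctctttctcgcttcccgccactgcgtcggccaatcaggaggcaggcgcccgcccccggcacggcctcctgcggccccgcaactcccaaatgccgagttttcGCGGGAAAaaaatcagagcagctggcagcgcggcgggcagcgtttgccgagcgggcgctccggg
Counting every window of a gene, 2 of 9 members had a match, against 6.7% of the 10508 tested genes with a window. Start sites without a window were not searched. The only DNMT3B window, chr20:32779602-32779901, lies inside the gene, whose annotated start is at 32762385. The DNMT1 and UHRF1 windows shown above also lie inside their annotated genes, which begin at 10231286 (minus strand) and 4903080. So do the windows used for TET2 and TET3. Of the maintenance partners listed further on, 5 of 8 had one (HELLS, CDCA7, PCNA, LIG1 and PCLAF), and of the TET cofactors and regulators 0 of 8. The windows of DNMT1 and UHRF1 held 30 and 36 CG dinucleotides, and those of TET2, TET3, MBD4 and DNMT3A held 35, 33, 29 and 26. Those of TDG, TET1 and DNMT3B held 22, 10 and 3, and the median over all windows was 14. A match is a description of letters and was not tested as a binding site.

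The genes with the profiles most like DNMT1 over the 6 libraries were MCM3, TIMELESS and UBE2S, by the root mean square difference of centred log2(TPM + 1). MCM3, a subunit of the replicative helicase, differed from the DNMT1 profile by 0.0158 and TIMELESS, a component of the replication fork, by 0.0164, where the median over all tested genes was 0.259. MCM3 stood at 127.9, 116 and 103.6 TPM in the knockdown and 171, 127.9 and 128.6 TPM in the control libraries, with replicate 1 highest in both groups, as for DNMT1. UBE2S, a ubiquitin-conjugating enzyme of the anaphase-promoting complex, differed by 0.0322. For UHRF1 the closest were APOO at 0.0402, MCM3 at 0.0406 and MTHFD1, a folate enzyme, at 0.0450. UHRF1 was rank 13 by likeness to DNMT1, and DNMT1 was rank 15 by likeness to UHRF1, at a difference of 0.0515.

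The de novo enzymes stood much lower than DNMT1, and their groups overlapped. DNMT3A, on chr2:25227855-25342590 (minus strand), was at 2.11, 2.55 and 2.72 TPM in the knockdown libraries (replicates 1, 2 and 3 in order), against 2.32, 2.70 and 2.85 TPM in the controls, with overlapping groups and a log2 fold change of -0.07 ± 0.135 (SE). The sign of this difference was not stable, since it was 0.00 in the fit to recovered reads. DNMT3B, on chr20:32762385-32809356 (plus strand), was at 7.04, 5.43 and 4.64 TPM in the knockdown and 6.82, 6.13 and 6.82 TPM in the control libraries. Knockdown replicate 1 was the highest of all 6 libraries and replicate 3 the lowest, and the log2 fold change was -0.19 ± 0.154 (SE). The ratio of DNMT3B to DNMT3A TPM ran from 1.71 to 3.33 in the knockdown and from 2.27 to 2.94 in the control libraries.

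The glycosylases TDG and MBD4 had overlapping levels, but their ratio did not overlap between knockdown and control. MBD4, on chr3:129430944-129440179 (minus strand), was at 27.7, 17.0 and 19.3 TPM in the knockdown libraries (replicates 1, 2 and 3 in order), against 34.4, 29.7 and 29.3 TPM in the controls, without overlap, and its log2 fold change was -0.55 ± 0.180 (SE), or ± 0.097 with the replicate block. TDG, on chr12:103965804-103988874 (plus strand), was at 35.7, 22.8 and 22.5 TPM in the knockdown and 33.6, 27.6 and 30.5 TPM in the control libraries. Knockdown replicate 1 was the highest TDG level of all, the other knockdown libraries were below every control, and the log2 fold change was -0.20 ± 0.189 (SE). The ratio of TDG to MBD4 was higher in every knockdown library, at 1.29, 1.34 and 1.17 against 0.978, 0.928 and 1.04. How often ratios of other genes separate the groups was not counted. MBD4 shares 144 exonic bases with IFT122 on the opposite strand, and whether strand was used in counting is not given in the sources used here. IFT122 was at 11.7 TPM ± 0.695 (SD, n = 3) in the controls and 11.0 TPM ± 0.180 (SD, n = 3) with cDCBLD2 siRNA, a log2 fold change of -0.08.

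**Figure D3:**
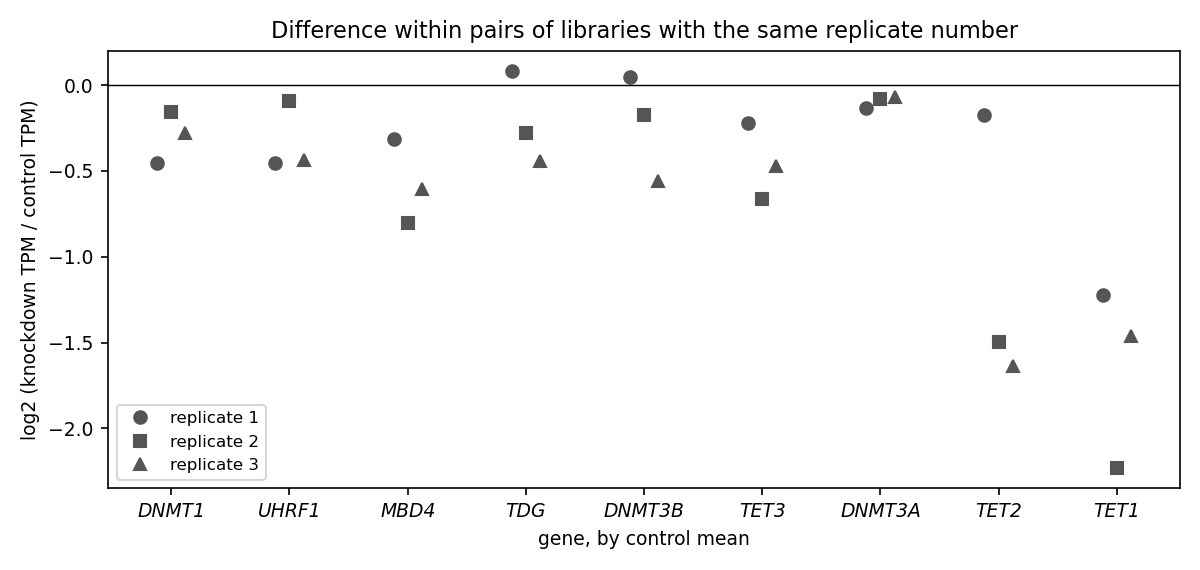
Log2 ratio of knockdown over control TPM within each pair of libraries of the same replicate number, for the 9 genes ordered by control mean, with a line at 0. All points lie below 0 except replicate 1 of TDG and of DNMT3B, and the lowest points are those of TET1, at -1.23 to -2.23, and replicates 2 and 3 of TET2.

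Over the 7 members that passed the minimum of 1 TPM, the median log2 fold change was -0.29, beside -0.08 over all 13980 genes tested. All knockdown libraries were below all control libraries for 4 of the 9 members, TET1, TET2, TET3 and MBD4, and for 2 of the 7 tested, where 22.3% of all genes tested showed this. In the limma fit without a block 0 of 7 members passed an adjusted p of 0.05, with 1 of 7 at an unadjusted p under 0.05 against 26.1% of all genes, where 0.629% of all genes passed with lower and 0.250% with higher levels. With the replicate number as a block 3 of 7 passed, namely DNMT1, UHRF1 and MBD4, all lower, where 25.0% of all genes passed in that direction. These calls were not stable, since the block with no minimum on TPM called TET1 alone, and leaving out either library of replicate 3 left 0 of 7, with 3.27% or 3.22% of all genes lower. In simulated data the fit with the block also called more unchanged genes than its nominal share. Those data had changes in a small part of the genes and no trend with GC content, unlike the libraries. With limma-voom on recovered reads 0 of 9 members passed without the block and 6 of 9 with it, TET1, TET2, TET3, DNMT1, UHRF1 and MBD4, where 20.9% of all genes passed as lower. Since the members were chosen with this contrast known, nothing is read from these counts. Without replicate 1 of both groups, whose libraries stand apart from the others, 3 of 7 passed, namely DNMT1, TDG and MBD4, where 25.3% of all genes passed as lower and 9.68% as higher.

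The differences between the groups moved with the GC content of the transcripts across the whole table, and the members lie on both sides of its middle. Across 12961 genes with a GC content the Spearman correlation between it and the log2 fold change was 0.648, a description across genes that share the same 6 libraries. The median log2 fold change was -0.40 in the fifth of genes with the lowest and 0.11 in the fifth with the highest GC content. TDG with 39.5% GC, TET1 with 41.0%, MBD4 with 42.8% and TET2 with 43.0% are AT-rich, and TET3, DNMT3A, DNMT3B, UHRF1 and DNMT1 lie between 52.3% and 55.4%. Genes within 1 percentage point of MBD4 had a median log2 fold change of -0.29, and 18.8% of them were lower than MBD4. Genes as rich in GC as TDG had a median of -0.39, and 76.3% of them were lower than TDG. For UHRF1, TET3 and DNMT1 the median of such genes was near 0, at 0.02, -0.02 and 0.03, and 3.92%, 4.22% and 5.22% of them were lower than the member.

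With an offset that removes the trend with GC content, the TDG log2 fold change was 0.19 and that of MBD4 was -0.25, while those of DNMT1, UHRF1 and TET3 were -0.32, -0.34 and -0.33. In the fit with this offset and the replicate block, 2 of 7 members passed, DNMT1 and UHRF1, where 12.2% of all genes passed as lower and 12.8% as higher. For TET1 and TET2, under the minimum, the log2 ratio of mean TPM was -1.52 and -0.99, beside a median of -0.41 and -0.32 for the same ratio over the tested genes of like GC content. The origin of the GC trend was not tested.

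**Figure D4:**
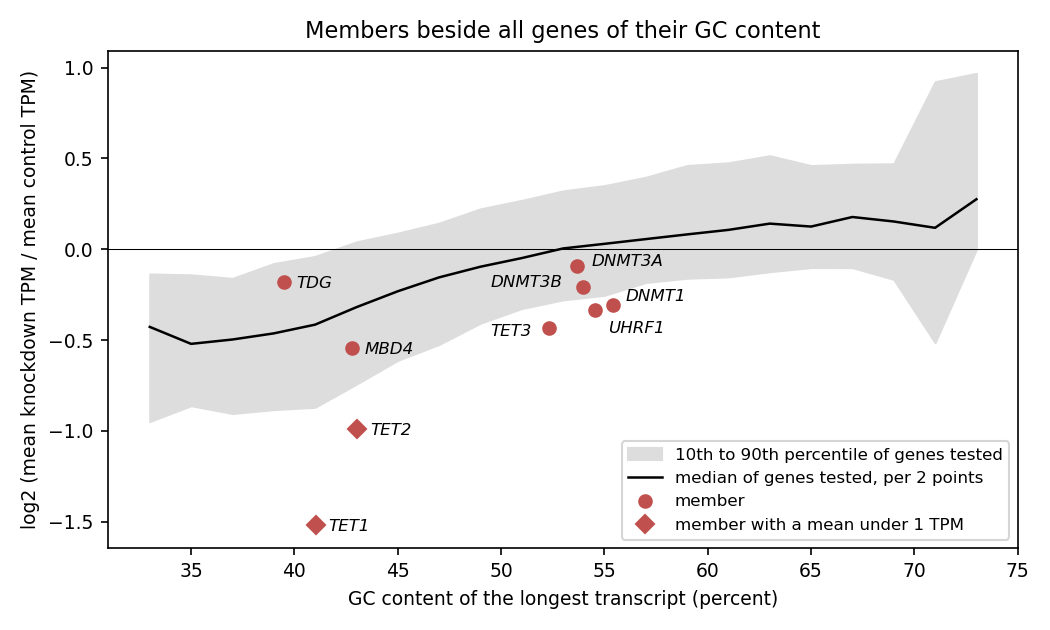
Log2 ratio of mean knockdown over mean control TPM against the GC content of the longest transcript in percent, with the median (line) and the 10th to 90th percentiles (band) of the genes tested in bins of GC content, and the 9 members as points. TET1 and TET2 (diamonds, mean under 1 TPM) lie below the band, TET3, UHRF1 and DNMT1 lie just under it, and TDG lies above the line for its GC content.

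A contrast that played no part in the choice of the members is that between replicate numbers, which are balanced over the groups. In a fit with group and replicate number, limma's moderated F-test of the number gave an adjusted p under 0.05 for 0 of 7 members, where 19.6% of all genes passed, and 4 of 7 had an unadjusted p under 0.05, against 39.0% of all genes. The lowest adjusted p was that of DNMT1, 0.0508 by limma, whose mean level was 124.9 TPM in replicate 1, 101.1 TPM in replicate 2 and 95.7 TPM in replicate 3. MBD4 followed with 0.0851, TDG with 0.0898, UHRF1 with 0.0999 and TET3 with 0.238. Replicate 1 was the highest library of both groups for 5 of the 7 members (TET3, DNMT1, UHRF1, TDG and MBD4) and for 38.9% of all genes tested. Relative to the mean of the other replicates it was higher by 0.42 on the log2 scale for TDG, 0.40 for MBD4, 0.33 for DNMT1 and 0.31 for UHRF1, and the value for DNMT3A was -0.20, beside a median of 0.06 over all genes. With the GC offset 1 member passed (DNMT1, adjusted p = 0.0256 by limma), where 20.4% of all genes did, and in the fit to recovered reads 3 of 9 passed (DNMT1, TDG and MBD4), where 27.3% of all genes did. In the simulated data named above the F-test, too, called more unchanged genes than its nominal share.

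Most genes of the cell cycle lists had negative log2 fold changes, as did DNMT1 and UHRF1, whose mRNAs are known to be highest in cycling cells. Of 42 tested S phase genes in the Seurat list, which also names UHRF1 itself, 41 had a negative log2 fold change. The median over the 42 was -0.39, beside -0.08 over all genes tested. With the replicate block 30 were lower, where 25.0% of all genes were, and 0 were called without it. The summed level of the S phase genes was 2115 to 3034 TPM in the knockdown and 2727 to 3898 TPM in the control libraries. Of 54 G2/M genes 50 were lower with the block, beside the same 25.0% of all genes, and 1 was called without it. The G2/M median was -0.62. With the GC offset the medians were -0.16 for S phase and -0.38 for G2/M genes, beside 0.01 over all genes. Calls with this offset were not counted for these lists. In replicate 1 the S phase genes were higher by a median of 0.50 on the log2 scale than in the others, beside 0.06 over all genes. In bulk RNA fewer cells in a phase and less RNA per cell cannot be told apart, and the part of cell cycle phase in the member values was not tested.

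The targeted circular RNA was studied as a sponge of miR-345-5p, so matches to the seed of this microRNA were looked for in the longest coding transcript of each member. The mature microRNA (RefSeq, GRCh38.p14, chr14:100307876-100307897, plus strand) is shown with its seed, bases 2 to 8, in capitals, followed by the 25 bases of the GENCODE 29 transcripts around each match, with the letters that pair with the seed in capitals.
miR-345-5p: gCUGACUCcuaguccagggcuc
TET1, coding sequence: acccttaccgGAGTCAGcactaact
UHRF1, coding sequence: gggccagagtGAGTCAGacaagtcc
DNMT3A, 3′ UTR, first match: ctcttacctcGAGTCAGcagcacct
DNMT3A, 3′ UTR, second match: ggactttgtgGAGTCAGcccgtgca
TET1, UHRF1 and DNMT3A thus held a match, 3 of 9 members, where 22.2% of 11669 tested coding genes held one in the coding sequence or 3′ UTR. DNMT3A, the member with matches in its 3′ UTR, had a log2 fold change of -0.07, and the median over the 1290 genes with a match there was -0.11, beside -0.08 over the 9073 genes without a match. TET1 and UHRF1 held theirs in the coding sequence, and the median over the 1486 genes with a match there was -0.13. With the GC offset these medians were 0.01 for the 3′ UTR, -0.04 for the coding sequence and 0.01 without a match. Of the 4 members whose groups did not overlap, TET1 held a match and TET2, TET3 and MBD4 held none. A match of these letters was not tested as a target site.

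Around the 9 enzymes, 94 further genes of DNA methylation and its readout were grouped in 8 lists, and 60 of them passed the minimum of 1 TPM. In the limma fit without a block 0 of 60 passed an adjusted p of 0.05 in either direction, while 26 had an unadjusted p under 0.05 (21 lower and 5 higher), 43.3% of them against 26.1% of all genes. With the replicate block 27 were lower and 5 higher, 45.0% and 8.33% of them, where 25.0% of all genes were lower and 9.94% higher. Leaving out either library of replicate 3 took the counts with the block to 5 lower (CDCA7, EZH2, OGT, PCLAF and PEG10) and 1 higher (H19), and leaving out either of replicate 2 to 14 and 2. With the GC offset and the block 11 were lower and 4 higher, where 12.2% of all genes were lower and 12.8% higher. Without replicate 1 of both groups and without a block 25 were lower and 5 higher. The counts of each list below stand beside the same shares of all genes, 25.0% lower and 9.94% higher with the block. With the GC offset added these shares are 12.2% and 12.8%. The median log2 fold change of the 60 was -0.19, beside -0.08 over all genes. The calls with the block named in what follows are those of the fit to log2(TPM + 1), and the adjusted p without the block is given for the genes with the largest differences.

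Among the partners of maintenance methylation 7 of 8 were lower with the block, and 0 of 8 with the block and the GC offset. PCLAF, a factor bound to the sliding clamp, had a log2 fold change of -0.55 (adjusted p = 0.00653 by limma with the block, 0.195 without), from 38.6 to 25.6 TPM. UHRF2, the paralog of UHRF1, had -0.52 (adjusted p = 0.00952 by limma with the block, 0.0941 without), with 8.12 TPM ± 1.08 (SD, n = 3) in the controls and 5.34 TPM ± 0.699 (SD, n = 3) with cDCBLD2 siRNA, and its groups did not overlap. HELLS, CDCA7, ZBTB24, USP7 and PCNA were lower by the same call, and the DNA ligase LIG1 was not, at -0.15.

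Among the partners of de novo methylation and writers of the histone marks that guide it, 4 of 7 tested were lower with the block and none higher. SETD2, which trimethylates histone H3 at lysine 36, had a log2 fold change of -0.73 (adjusted p = 0.00913 by limma with the block, 0.109 without) and stood at 20.1, 11.0 and 13.5 TPM in the knockdown and 27.1, 21.4 and 25.4 TPM in the control libraries. EZH2, the methyltransferase of Polycomb, had -0.59 (adjusted p = 0.00511 with the block by limma, 0.195 without). NSD1 and NSD2, which dimethylate histone H3 at lysine 36, made up the rest, and NSD1, SETD2 and EZH2 were also lower with the block and the GC offset. TRIM28, a corepressor of zinc finger proteins, was not called, with a mean of 434 TPM after knockdown and 422 TPM in the controls.

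The list of methyl-CpG readers held 9 genes, among them MBD3, MBD5 and MBD6, which share the domain but are not established readers. Of these 9 genes 2 were lower and 2 higher with the block, where 25.0% of all genes were lower and 9.94% higher. ZBTB38 had a log2 fold change of -0.76 (adjusted p = 0.0275 by limma with the block, 0.157 without) and ZBTB33, also called Kaiso, -0.67 (adjusted p = 0.0228 with the block by limma, 0.227 without). The ones higher were ZBTB4 at 0.32 and MBD6 at 0.28 on the log2 scale. With the block and the GC offset 0 were lower and ZBTB4 alone was higher. MBD1, MBD2 and MBD3, which carry a methyl-CpG binding domain, were not called, with log2 fold changes of 0.11, -0.10 and 0.02.

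Among TET cofactors and regulators 5 of 8 tested were lower and 1 higher with the block. QSER1, which is known to guard regulatory regions from de novo methylation together with TET1, had a log2 fold change of -0.96 (adjusted p = 0.0134 by limma with the block, 0.169 without), with a mean of 7.90 TPM ± 1.89 (SD, n = 3) in the controls and 3.92 TPM ± 2.61 (SD, n = 3) with cDCBLD2 siRNA. OGT, the enzyme that adds N-acetylglucosamine to proteins and binds TET proteins, had -0.53 (adjusted p = 0.00526 with the block by limma, 0.0644 without), with 47.6, 37.0 and 43.0 TPM in the knockdown and 64.1, 57.5 and 63.2 TPM in the control libraries and no overlap. IDH3A and IDH1, which act on isocitrate, were also lower, and CXXC5 was the one higher, at 0.29. QSER1 and OGT were also lower, and CXXC5 higher, with the block and the GC offset.

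In base excision repair, the pathway that follows TDG and MBD4, 3 of 12 tested genes were lower with the block and 9 were not called. Over all genes 25.0% were lower by this call. UNG, the uracil-DNA glycosylase, stood at 115.8, 147.5 and 131.6 TPM in the knockdown and 215.5, 179.6 and 179.9 TPM in the control libraries, without overlap, a log2 fold change of -0.54 (adjusted p = 0.0203 by limma with the block, 0.0674 without). POLB, the gap-filling polymerase, had -0.31 (adjusted p = 0.0178 with the block by limma, 0.0930 without), and PARP1 was the other one lower. With the block and the GC offset UNG was also lower, NTHL1 was called lower, and POLB and PARP1 were not called. APEX1, the endonuclease of the pathway, was not called, at 250.1 TPM after knockdown and 267.9 TPM in the controls.

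Of the 9 tested genes that supply the methyl donor S-adenosylmethionine, 5 were lower with the block and none higher. MTR, methionine synthase, had a log2 fold change of -0.68 (adjusted p = 0.00693 by limma with the block, 0.0851 without) and its reductase MTRR -0.48 (adjusted p = 0.0143 with the block by limma, 0.139 without). MTHFD1 and the methionine adenosyltransferase subunits MAT2A and MAT2B were the others. With the block and the GC offset 2 were lower, MTR and AHCY, which clears the product S-adenosylhomocysteine, while MTRR, MTHFD1, MAT2A and MAT2B were not called and the log2 fold change of MAT2B was 0.18.

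**Figure D5:**
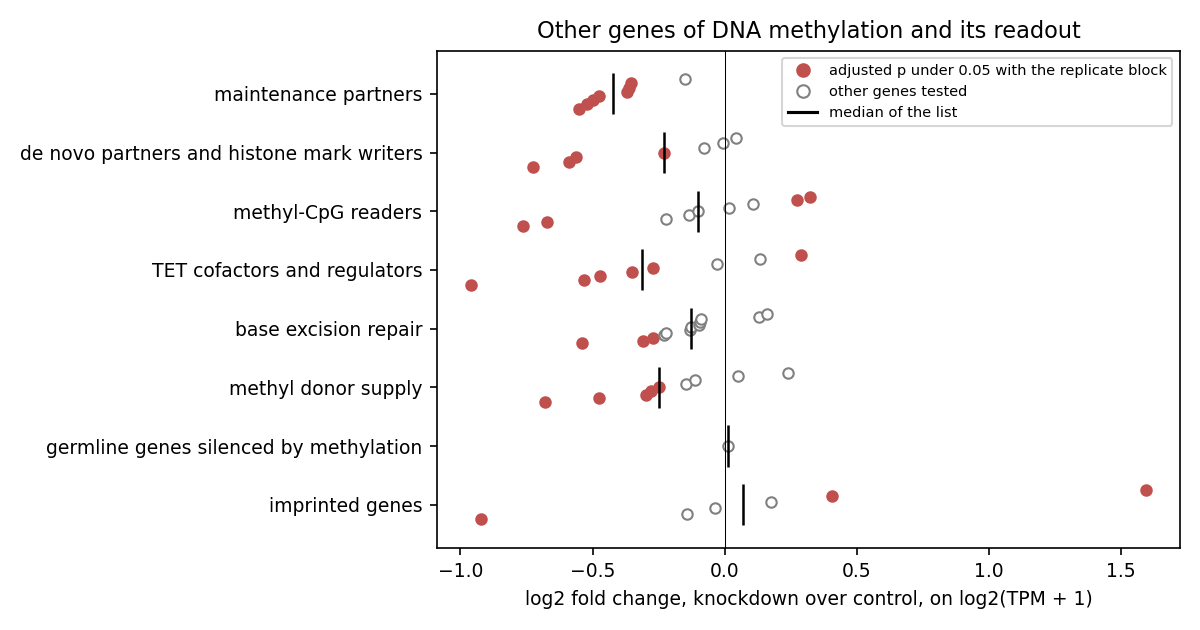
Log2 fold change of knockdown over control for the 60 tested genes in 8 lists, each gene a point and each list median a bar, filled where the adjusted p with the replicate block was under 0.05. Most filled points lie left of 0, and the imprinted genes spread most widely, from PEG10 at -0.92 to H19 at 1.59.

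Genes whose silencing or allelic expression is known to depend on DNA methylation mostly lay under the minimum. Of 17 germline genes that methylation silences in most somatic cells, MAGEA3 alone passed the minimum, at 83.7 TPM after knockdown and 82.9 TPM in the controls, with a log2 fold change of 0.01. Its near-identical copy MAGEA6 was listed at 0.435 and 0.403 TPM, and reads of such copies can be split between them in counting. Of the 6 tested imprinted genes 2 were higher and 1 was lower with the block. H19, a maternally expressed noncoding RNA, was at 192, 514 and 826 TPM in the knockdown libraries (replicates 1, 2 and 3 in order), against 69.5, 168 and 251 TPM in the controls, and knockdown replicate 1 was below control replicate 3. Within each pair it was higher in the knockdown, with a log2 fold change of 1.59 (adjusted p = 0.00127 by limma with the block, 0.181 without). PEG10, a paternally expressed gene of retrotransposon origin, was at 35.4, 26.8 and 30.2 TPM against 73.1, 50.9 and 54.8 TPM without overlap, with -0.92 (adjusted p = 0.00436 with the block by limma, 0.0545 without). GRB10, an adaptor of insulin signalling, was the other one higher, at 0.41, and IGF2, MEST and SNRPN were not called. H19, GRB10 and PEG10 kept these calls with the block and the GC offset.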

How the data were processed

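PolyA-Seq libraries of HCCLM3-SR cells were grouped and numbered by their sample titles. The authors deposited TPM values per gene, which sum to 1000000 in each library. The submitters' processing notes name fastp 0.20.1, HISAT2 2.1.0, StringTie 2.0 and hg38. The annotation and strand setting are not given in the sources used here, nor is what the replicate numbers stand for.

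For the 13980 genes that averaged 1 TPM or more, log2(TPM + 1) was fitted in limma 3.58.1 (R 4.3.3), using its trend option, and p-values were adjusted by Benjamini-Hochberg over these genes. An adjusted p under 0.05 was called. TPM are not counts, so DESeq2, which the study's methods name, was not run. Those methods name no block. Deviations of same-numbered libraries from their group means correlated at 0.56, 0.343 and 0.362, all over the limit of 0.1, so the numbers were taken to pair the libraries and a fit with the replicate number as a block is given beside the other.

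Whole reads were recovered from ratios of TPM between libraries for 17285 genes above 0 in all libraries, 100.00% of them within 0.02 reads of whole numbers. Of these genes 90.34% were whole with at most 2000 reads in the lowest library, against 0.01% with library factors moved. Recovered reads are lower bounds, and limma-voom was run on genes with at least 10 reads in 3 libraries. GC content, transcripts and coordinates came from GENCODE 29 (GRCh38, the build the notes name), promoters and the microRNA from RefSeq (GRCh38.p14), all 9 members matched by symbol, and 92.7% of genes tested had a GC content. The GC offset is a loess curve (span 0.5) of each library's deviations. Cell cycle lists came from Seurat 5.3.0.

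The members and lists were chosen with earlier results of these data known. All 9 members are named, and of each list the 2 genes with the largest change among those called with the block. The 3 genes with profiles nearest to DNMT1 and to UHRF1 are named, and DCBLD2. Other genes are named after their values were seen, to make up a count. Alternatives were upper-quartile scaling, no minimum, a pseudocount of 0.1, the GC offset, limma-voom and leaving out each library. Counts of calls were also made with the block in each of them. The values of some genes in the lists are not reported here.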

Additional observations from a re-analysis of the deposited data

How the results depend on the processing

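Without the replicate block 0 of 7 members passed in the limma fit, and leaving out 1 library gave 0 to 2, the 2 (TDG and MBD4) without knockdown replicate 1. The replicate block gave 3, the block with the GC offset 2 and limma-voom with the block 6 of 9. With the block, leaving out 1 library gave 0 (either replicate 3) to 4 (either replicate 1), no minimum 1 and upper-quartile scaling 2. Of the further genes, 0 were higher and 0 lower. The replicate block gave 5 and 27, the GC offset with the block 4 and 11, limma-voom with the block 9 and 23, and limma-voom without it 2 lower (NSD1 and PEG10). Leaving out 1 library gave 0 to 3 higher and 0 to 20 lower, the most without knockdown replicate 1. With the block these ranges were 1 to 6 and 5 to 24, and no minimum gave 4 and 14. Leaving out replicate 1 of both groups, an alternative chosen after seeing the data, gave 3 members, 5 higher and 25 lower. By replicate number 0 members differed, against 1 with the GC offset, 3 with limma-voom and 0 to 2 without 1 library, the 2 without control replicate 1. The cause of these shifts was not tested. Of 105 member log2 fold changes under an alternative, 101 moved by less than 1 SD between replicates and 5 changed sign, TDG to 0.19 with the GC offset in both fits and DNMT3A to values within 0.01 of 0 with limma-voom in both fits and without knockdown replicate 1. In the TPM fits, neither the replicate block nor the lack of a minimum could move a member log2 fold change. The GC offset gave the same values with and without the block, so the 105 are not separate checks. The median over all genes was -0.08 in TPM and 0.00 with limma-voom. Depth limits TET1, with 10 to 53 reads, and TET2, with 51 to 145.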
